A study of Mus musculus with 2 samples.

Results

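The 10 genes described here, Atf4, Atf5, Ddit3, Asns, Chac1, Trib3, Psat1, Phgdh, Mthfd2 and Sesn2, belong to the amino acid response that the transcription factor ATF4 directs. They were taken by name from GENCODE M21 among the 55421 gene identifiers of the deposited count tables. Liver RNA was sequenced in 1 library from mice with floxed Rcrin alleles, labelled WT, and 1 library from Rcrin conditional knockout mice, labelled Rcrin knockout. Both carry a time label of 8 weeks, and floxed alleles are those in which loxP sites flank a part of the gene that Cre recombinase can remove. Which Cre was used, in which cells it acted, whether the mice behind a library were pooled, and their sex are not given in these sources. The study asked how the loss of Rcrin changes gene expression in liver.

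ATF4 is the effector of the integrated stress response. When a kinase such as GCN2, which senses uncharged tRNA, or PERK, which senses unfolded protein in the endoplasmic reticulum, phosphorylates the initiation factor eIF2 alpha, most translation slows while the Atf4 message is translated more. ATF4 protein then pairs with other basic leucine zipper factors on composite C/EBP-ATF elements and switches on genes of amino acid synthesis, uptake and tRNA charging. Because ATF4 is set largely at translation, its mRNA level is not a measure of its protein.

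A C/EBP-ATF element was searched for as TGATGNAA on both strands of the RefSeq promoter windows, build GRCm38.p6, which run from 250 bases before to 50 bases after each annotated start. It occurred in 3 of the 10 genes, over 12 promoter windows. Over the whole set it occurred in 4.51% of genes with a window, and in 3.97% of all 32851 windows of the same 300 bases. The matches of these 3 genes are shown because they hold the letters of the element through which ATF4 is known to act. Whether ATF4 binds them was not tested. Each is read 5′ to 3′ on the strand that holds the motif, with the motif in capitals and 11 bases on either side.
Asns, chr6:7693214-7693243, minus strand: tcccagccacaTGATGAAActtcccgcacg
Chac1, chr2:119351038-119351067, minus strand: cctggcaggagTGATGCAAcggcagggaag
Trib3, chr2:152344028-152344057, plus strand: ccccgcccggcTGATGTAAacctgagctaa
Relative to the RefSeq start, the first base of the motif on the gene's own strand lay at -23 in Asns, at -193 in Chac1 and at 14 in Trib3. In Asns the motif reads along the gene, and in Chac1 and Trib3 against it. The GENCODE span of Asns starts farther upstream, at 7693254, and takes in the motif, while that of Trib3 starts at 152344032, downstream of it. The other 7 genes had no such letters in these windows, which says nothing of elements elsewhere.

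The libraries held 65121596 counts (WT) and 63587567 counts (knockout), scaled to counts per 1000000 (CPM) with TMM factors, which set the bulk of genes level between libraries. Since each genotype has a single library, variation among mice could not be estimated, nothing was tested, and every difference is one between these libraries. Ratios are knockout over WT on the log2 scale, with exact 95% intervals that cover counting error only, and PCR copies without molecular identifiers are not independent. A gene is said to be past 2-fold when its log2 ratio is at least 1 in size. A gene was compared if it averaged at least 50 counts across the libraries, which 12064 genes and 9 of the 10 response genes reached. Phgdh, with a mean of 43 counts, fell short of it, and Psat1, with 72.5, passed. All 10 hepatocyte markers had counts in both libraries, with Alb highest at 50543 and 89625 CPM. In bulk tissue, fewer cells of a type and less RNA per cell cannot be told apart.

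Asparagine synthetase (Asns) was the 1 response gene past 2-fold, and it stood lower in the knockout library. The transcription factors Atf4 and Atf5 differed by less and in opposite directions, while Sesn2 and Trib3 were at nearly equal levels in both libraries. Of the 9 genes compared, 1 was lower past 2-fold (11.1%) and 0 were higher. Over all 12064 genes compared, 8.61% were lower and 8.45% higher by as much, so the share among the response genes was near that of the whole table. Their median log2 ratio was -0.19, beside -0.0099 over all genes, and became 0.06 when a smooth trend of the ratio on transcript GC content was subtracted, so it has no firm direction. The intervals of 4 genes (Chac1, Trib3, Sesn2 and Psat1) held 0, and those of the other 6 did not.

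**Figure D1:**
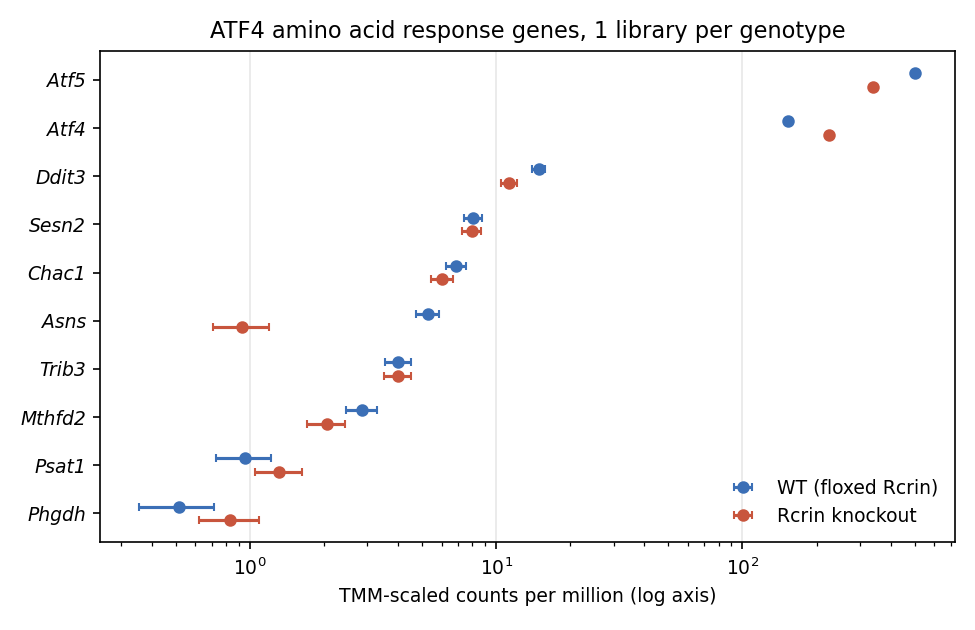
TMM-scaled CPM (log axis) of the 10 genes in the WT (blue) and the Rcrin knockout library (red), with exact Poisson 95% intervals for counting error. Asns, at 5.27 and 0.928 CPM, is the gene whose points lie farthest apart, and those of Sesn2 and Trib3 nearly coincide.

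Asns makes asparagine from aspartate and glutamine and is a standard readout of ATF4 activity. The gene (ENSMUSG00000029752, GRCm38 chromosome 6 from 7675169 to 7693254) has 12 exons and overlaps no other gene in GENCODE M21. It had 349 counts in WT and 58 in knockout, or 5.27 and 0.928 CPM. The level was 5.63-fold lower in the knockout library, with a counting interval from 4.29-fold to 7.62-fold (log2 ratio -2.49, from -2.93 to -2.10). Of 7087 genes compared that have at least 8 exons, 6.65% were lower past 2-fold, and 50 (0.706%) were as low as Asns or lower. Among the 1780 of these whose mean lay within 2-fold of that of Asns, 20 were as low or lower. The log2 ratio stayed between -2.54 and -2.41 under every other scaling, added count and GC correction tried.

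Among the response genes, none of the other enzymes of amino acid and one-carbon synthesis (Phgdh, Psat1 and Mthfd2) was past 2-fold. Phgdh and Psat1 catalyse the first and the second step of serine synthesis from a glycolytic intermediate, and both were scarce. Phgdh (chromosome 3 from 98313170 to 98339990) had 34 and 52 counts (0.513 and 0.832 CPM), a log2 ratio of 0.69 with an interval from 0.05 to 1.37. Psat1 (chromosome 19 from 15904678 to 15947337) had 63 and 82 counts (0.950 and 1.31 CPM), a log2 ratio of 0.46 with an interval from -0.03 to 0.96. Both stood higher in the knockout library by less than 2-fold, and at these counts a difference of 2-fold for Phgdh lies within the interval. Mthfd2, the mitochondrial folate enzyme that handles one-carbon units from serine (chromosome 6 from 83305691 to 83325908), had 189 and 128 counts (2.85 and 2.05 CPM). Its log2 ratio was -0.48, with an interval from -0.81 to -0.15. The intervals of Psat1, Phgdh and Mthfd2 lay wholly above that of Asns.

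Atf4 itself (ENSMUSG00000042406, chromosome 15 from 80255184 to 80257541) had 10120 and 14092 counts, or 153 and 226 CPM. It stood 1.48-fold higher in the knockout library (log2 ratio 0.56, from 0.53 to 0.60). Atf5, a related leucine zipper factor that also responds to stress through upstream reading frames (chromosome 7 from 44812256 to 44816658), had 33191 and 21113 counts, or 501 and 338 CPM. It stood 1.48-fold lower (log2 ratio -0.57, from -0.59 to -0.54). The GC correction took these ratios to 0.79 and -0.28, in the same directions but of other sizes. Per kilobase of merged exons, Atf5 was above Atf4 by 3.88 times in WT and by 1.77 times in the knockout. Atf4 and Atf5 together took 93.8% (WT) and 94.3% (knockout) of the counts of the 10 genes.

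The Atf5 value has a limit of its own. Its span shares 571 bases with Nup62 and 272 bases with Il4i1, both on the other strand, and the use of strand in the counting is not stated in these sources. Nup62 had 0 and 1252 counts and Il4i1 0 and 25, so the neighbours were listed at 0 in the WT library, in which Atf5 was higher. Whether reads moved between these genes was not tested.

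Ddit3 encodes CHOP, a leucine zipper factor that pairs with ATF4 and C/EBP proteins under prolonged stress. The gene (chromosome 10 from 127290774 to 127296288) had 986 and 703 counts (14.9 and 11.3 CPM) and a log2 ratio of -0.40, from -0.54 to -0.26. With the GC trend removed the ratio was -0.18. The names of the 10 genes map to 11 gene identifiers because of a second Ddit3 entry, ENSMUSG00000116429. This entry lies inside the first and was listed at 0 in both libraries. The end of Ddit3 also shares 68 bases with Mars, the methionyl-tRNA synthetase gene on the other strand, which had 3830 and 3772 counts.

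Chac1, Trib3 and Sesn2 are downstream genes of the response. Chac1, an enzyme that degrades glutathione (chromosome 2 from 119351229 to 119354381), had 457 and 377 counts (6.89 and 6.03 CPM) and a log2 ratio of -0.19, from -0.39 to 0.01, which the GC correction turned to 0.06. Trib3, a pseudokinase that binds ATF4 and dampens it (chromosome 2 from 152337422 to 152344032), had 265 and 249 counts (3.998 and 3.986 CPM) and a log2 ratio of -0.0044, from -0.26 to 0.25. Sesn2, a leucine sensor that restrains the growth kinase complex mTORC1 (chromosome 4 from 132492032 to 132510501), had 534 and 496 counts (8.06 and 7.94 CPM). Its log2 ratio was -0.02, from -0.20 to 0.16. The GC correction took Trib3 to 0.25 and Sesn2 to 0.23, so neither has a firm direction. For each of these 3 genes the interval ended well short of 2-fold, in counting error alone.

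**Figure D2:**
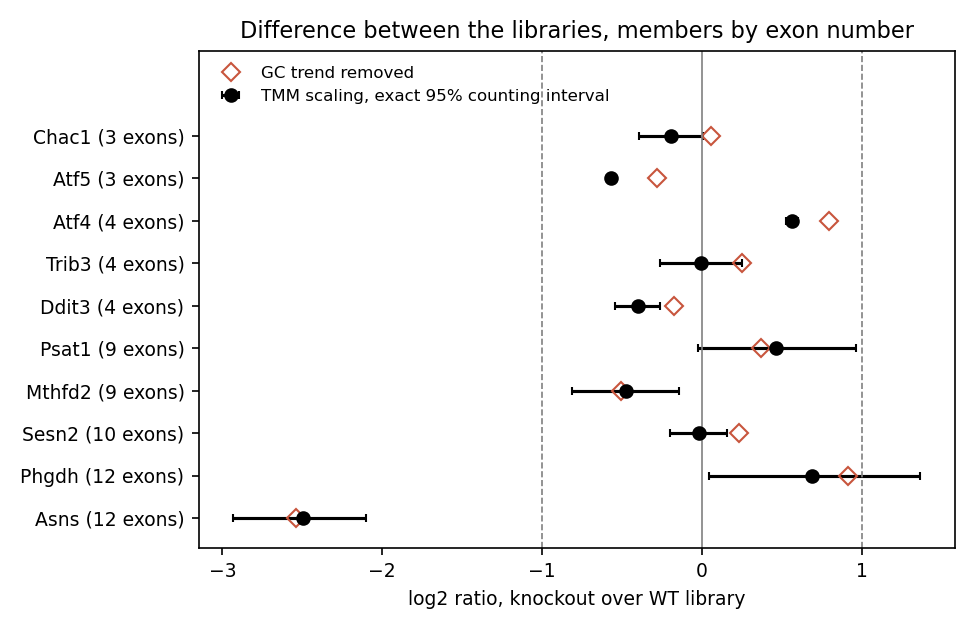
Log2 ratio of the knockout over the WT library for the 10 genes, ordered by exon number, with exact 95% counting intervals (black) and the value after removal of the GC trend (red diamonds). Dashed lines mark 2-fold, which Asns at -2.49 passes.

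Exon number bears on how the members compare, since genes with few exons differed more between these libraries. Atf4, Atf5, Ddit3, Chac1 and Trib3 have 3 or 4 exons in the transcript with most, and Asns, Psat1, Phgdh, Mthfd2 and Sesn2 have 9 to 12. Of 1539 genes compared with 3 or 4 exons, 24.0% were past 2-fold in either direction, and 0 of the 5 response genes were. The middle 50% of those 1539 genes ran from -0.49 to 0.56, and Atf5 lay outside it at -0.57, with Atf4 at its upper edge. For genes with at least 8 exons the middle 50% ran from -0.43 to 0.36. Asns and Mthfd2 lay below that span, Psat1 and Phgdh above it, and Sesn2 inside.

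**Figure D3:**
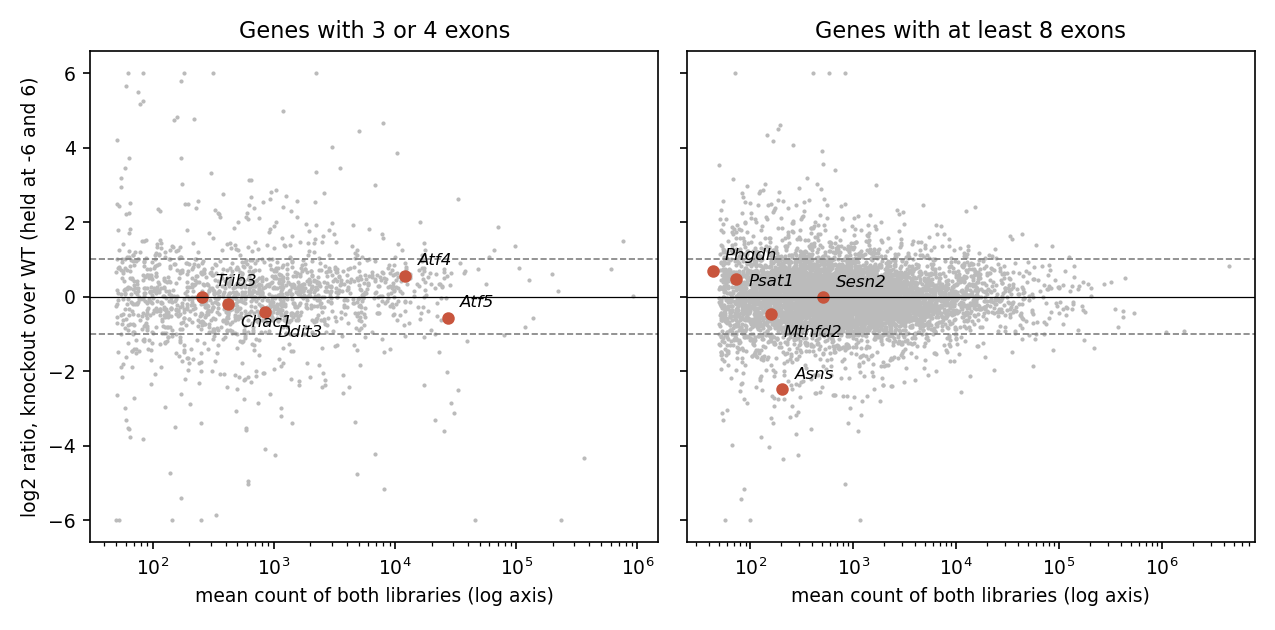
Log2 ratio against mean count (log axis) for genes compared with 3 or 4 exons (left) and with at least 8 exons (right), as grey points, and the response genes of each class in red, of which Asns is the 1 beyond the dashed 2-fold lines. Phgdh, with a mean of 43 counts, is drawn though it was below the minimum, and values beyond 6 in size are drawn at 6.

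Ordered by level per kilobase of merged exons, the genes spanned a wide range. In the WT library Atf5 stood first at 251 CPM per kilobase, followed by Atf4 at 64.7, Ddit3 at 8.68 and Chac1 at 4.21. Sesn2 (2.32), Asns (1.93) and Trib3 (1.88) came next, each overlapping its neighbour in counting interval, then Mthfd2 (0.818). Psat1 (0.223) and Phgdh (0.206) came last and overlapped. In the knockout library Asns, at 0.339, was down among Phgdh (0.335) and Psat1 (0.309), and the intervals of these neighbours overlapped. Sesn2 (2.28) and Trib3 (1.88) overlapped there too. With the median transcript length in place of merged exons, 5 genes (WT) and 7 (knockout) changed place, while Atf5, Atf4 and Ddit3 were still the first 3.

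Beyond these genes, 95 others were gathered in 10 lists. Of these, 8 lists (70 genes) cover genes upstream of ATF4, its partners, its response and amino acid sensing upstream of mTORC1. The 70 therefore include genes that are not targets of ATF4. Another list holds paralogs of the response genes (6), and the last the neighbouring XBP1 and ATF6 arm of the unfolded protein response (19). Of the 63 genes compared in the first 8 lists, 5 were higher past 2-fold (7.94%) and 2 lower (3.17%), and their median log2 ratio was -0.14. Over all genes compared, 8.45% were higher and 8.61% lower. With the paralogs and the XBP1 and ATF6 arm included, 88 genes were compared, of which 6 were higher (6.82%) and 10 lower (11.4%), and 7 of those 10 belong to that arm. The 7 genes with too few counts were Slc7a11 (17 and 0 counts), Pycr1 (37 and 10), Slc7a1 (60 and 33), Aldh1l2 (4 and 5), Stc2 (24 and 29), Tnfrsf10b (40 and 56) and Slc7a3, listed at 0 in both libraries.

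Upstream of ATF4, 9 kinases, phosphatase subunits and regulators of eIF2 alpha had a median of -0.05. Past 2-fold, 1 was higher and 1 lower, beside 8.45% and 8.61% of all genes compared. Impact, an inhibitor of the amino acid sensor GCN2, had 237 and 16 counts and a log2 ratio of -3.76 (from -4.63 to -3.07). Eif2s1, which encodes eIF2 alpha itself, had 978 and 2242 counts and a log2 ratio of 1.28, or 0.91 with the GC trend removed. The 4 eIF2 alpha kinases were within 2-fold. GCN2 (Eif2ak4) had a ratio of -0.05, PERK (Eif2ak3) -0.60, PKR (Eif2ak2) 0.58 and HRI (Eif2ak1) -0.17.

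Among 5 leucine zipper partners and cofactors, 2 were higher past 2-fold and 0 lower, with a median of 0.41. Of all genes compared, 8.45% were higher and 8.61% lower by as much. Cebpb, a gene of 1 exon, had 3500 and 7817 counts (1.24), and Atf3 had 190 and 372 (1.05, from 0.80 to 1.31). Of 7 other stress outputs compared, 2 were higher and 0 lower, with a median of 0.18. They were the circulating stress hormones Gdf15 (1556 and 4683 counts, log2 ratio 1.67) and Fgf21 (45 and 98 counts, 1.20, from 0.68 to 1.75), each with 3 exons. Of all genes compared with 3 or 4 exons, 24.0% were past 2-fold in either direction.

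Of the genes compared that supply and charge amino acids, 1 transporter was past 2-fold, and it was lower. Of all genes compared, 8.61% were lower and 8.45% higher by as much. Beside these shares, 0 past 2-fold in a list of a few genes says little. Slc7a5, the light chain of the exchanger for large neutral amino acids, had 399 and 18 counts, a log2 ratio of -4.35 (from -5.15 to -3.71). It has 10 exons. Its heavy chain partner Slc3a2 had 3557 and 2263 counts (-0.57), and Slc38a2, a glutamine and alanine carrier, 3794 and 5399 (0.59). The 7 transporters compared had a median of -0.57. Slc7a11, a transporter below the minimum count, had 17 and 0 counts. Its log2 ratio of -5.09, with an upper interval end of -1.96, depends in size on the 0.5 counts added. None of 6 serine, glycine and folate enzymes compared (median -0.16) or 6 further amino acid enzymes compared (-0.49) was past 2-fold. Pycr1, an amino acid enzyme below the minimum count, had 37 and 10 counts and a log2 ratio of -1.75 (from -2.98 to -0.77). None of 14 genes of tRNA charging and export (-0.00049) or 9 genes of amino acid sensing upstream of mTORC1 (-0.18) was past 2-fold. The 13 tRNA synthetases, a class of which ATF4 is known to induce many members, ran from -0.81 (Wars) to 0.84 (Lars), with 7 above and 6 below 0 and a median of 0.04. The other gene counted with them, the tRNA exporter Xpot, had a log2 ratio of -0.33.

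Of the 6 paralogs of the response genes, 1 was higher and 1 lower past 2-fold, beside 8.45% and 8.61% of all genes compared. Their median was 0.10. Trib1, a pseudokinase that promotes degradation of C/EBP alpha, had 4373 and 874 counts and a log2 ratio of -2.24 (from -2.34 to -2.13), while Trib3 had -0.0044 and Trib2 -0.35. Chac2 had 364 and 867 counts and a ratio of 1.34 (0.85 with the GC trend removed), beside -0.19 for Chac1. Sesn1 (-0.19) and Sesn3 (0.39) were within 2-fold, as was Mthfd2l (0.81). Trib1, Trib2 and Chac2 have 3 exons.

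The chaperone branch of the unfolded protein response, which XBP1 and ATF6 drive, had 7 of 19 genes lower past 2-fold, 0 higher, and a median of -0.84, beside 8.61% lower over all genes compared and 6.65% over those with at least 8 exons. Pdia4 (-2.12), Dnajb11 (-1.52), Creld2 (-1.32) and Dnajc3 (-1.24) were the farthest, and Xbp1 itself stood at 0.15. With the GC trend removed, 5 of these 19 genes were lower past 2-fold. The same correction left 4 of all 88 listed genes higher (4.55%) and 8 lower (9.09%), beside 7.52% and 8.16% of all genes compared.

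**Figure D4:**
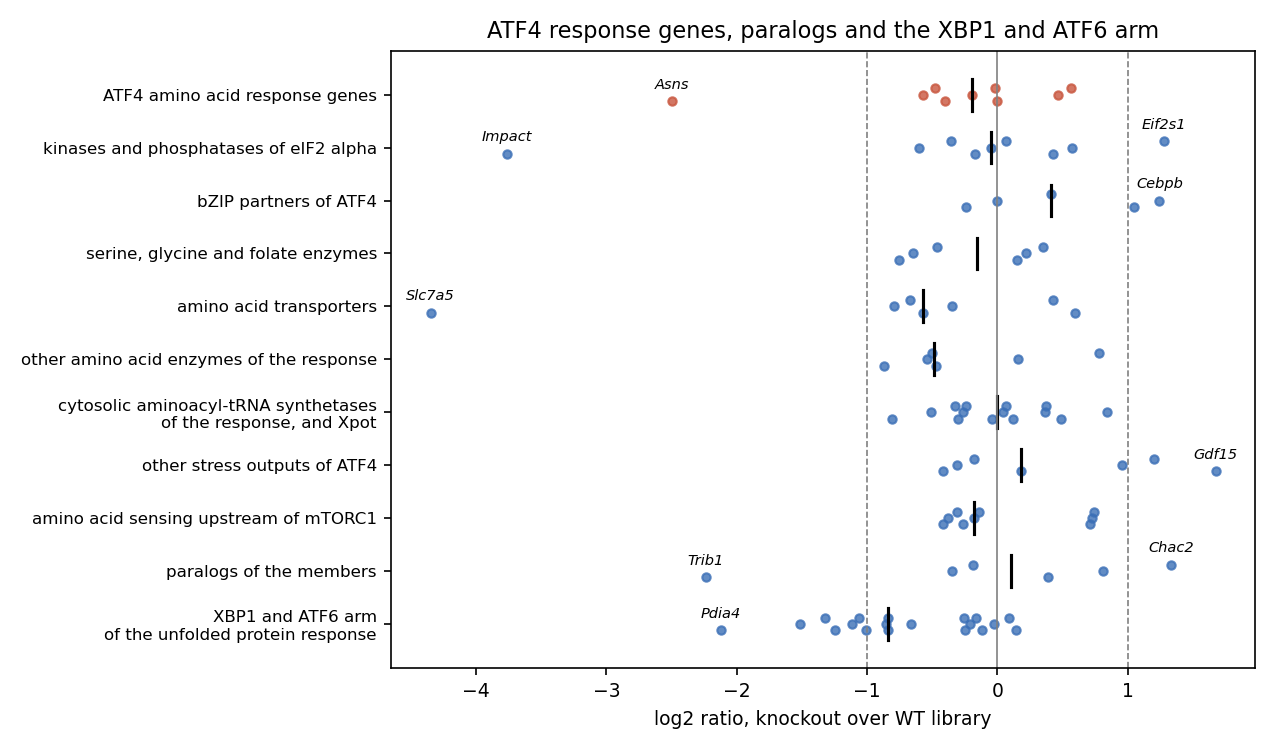
Log2 ratio of the knockout over the WT library for every gene compared in the 10 response genes (red) and the 10 further lists (blue), with each list's median as a black bar and 2-fold as dashed lines. Slc7a5, Impact, Asns and Trib1 are the lowest, and Gdf15 is the highest.

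The 258 genes compared whose RefSeq windows hold TGATGNAA had a median log2 ratio of -0.02 and a middle 50% from -0.35 to 0.40. The 9035 without it had the same median of -0.02 and a middle 50% from -0.43 to 0.42. The motif stood in 16 of the 74 other listed genes that have a window (21.6%), beside 4.51% of all genes with one, and the lists were drawn up from knowledge that partly rests on this element. The 17 motif-bearing genes compared among the listed genes and the response genes ran from -2.49 (Asns) to 1.20 (Fgf21), with a median of -0.19, 10 below and 7 above 0. Slc7a11 and Pycr1 also hold the motif but were below the minimum count. Both stood lower in the knockout library, on the side of Asns. Slc7a11 had a log2 ratio of -5.09 (upper end -1.96) and Pycr1 -1.75 (from -2.98 to -0.77). The Atf3 and Fgf21 matches are printed because both stood on the other side from Asns with a match to the same motif.
Atf3, chr1:191183425-191183454, plus strand: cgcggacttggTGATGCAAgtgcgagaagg
Fgf21, chr7:45615611-45615640, plus strand: gcctggacggaTGATGCAAtgggggggtct

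Markers of cell types differed between the libraries too, in both directions. Hepatocyte genes had 8 of 10 above 0 and a median log2 ratio of 0.42, with summed levels of 123691 CPM (WT) and 156360 CPM (knockout). Among them 1, Hnf4a, was higher past 2-fold (1.17), beside 8.45% of all genes compared. Erythroid genes had 3 of 4 compared lower past 2-fold, beside 8.61% of all genes, with a summed level of 1837 CPM (WT) and 562 CPM (knockout). The other, Alas2, the erythroid enzyme of heme synthesis, stood higher (209 and 306 CPM, log2 ratio 0.55, from 0.52 to 0.58), and Epb42 and Ermap were at 0 in both. Neutrophil genes had 3 of 7 lower, all 7 below 0, and a summed level of 52.7 and 22.6 CPM. The part of these cell types in the Asns and Slc7a5 values was not tested. Exocrine pancreas, a tissue rich in Asns, had 5 of its 7 markers (Prss2, Cpa1, Ctrb1, Pnlip and Amy2a5) at 0 in both libraries, while Cela1 stood higher (1.03) and Cela2a lower (-1.03). Proliferating cell genes had 1 of 6 higher (Ccnb1, 1.36), 0 lower, and summed levels of 40.2 and 47.7 CPM. Kupffer cell genes had 6 of 8 below 0 and a median of -0.40, with summed levels of 1494 and 1091 CPM. Of these 8, 1 was higher past 2-fold (Vsig4, 1.02) and 0 lower. Stellate cell genes had 2 of 8 lower (Col1a1, -1.67, and Acta2, -1.49), 0 higher, and nearly equal sums of 145 and 136 CPM. Cholangiocyte genes had 1 of 6 lower (Spp1, -1.02), 0 higher, and sums of 41.0 and 26.4 CPM. None of 8 endothelial genes (353 and 349 CPM) or of 4 lymphocyte genes compared (summed over the list, 12.7 and 13.7 CPM) was past 2-fold. Cftr of the cholangiocyte list was at 0 in the WT library, with 12 counts in the knockout library.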

How the data were processed

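The authors deposited 1 table of raw, whole-number counts by Ensembl gene for each library, per the file headers. Per the labels' protocols, RNA came from a Trizol extraction and was prepared with the SMARTER mRNA-Seq kit. The submitters' processing notes name GRCm38 (mm10). The aligner, counting program, annotation release and use of strand are not given in these sources. Names, positions, exon numbers (the transcript with most), GC content and lengths were read from GENCODE M21, which held 55240 of the 55421 identifiers.

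TMM factors were computed with edgeR 4.0.16 in R 4.3.3 (1.02 for WT, 0.982 for the knockout), and 0.5 counts were added before the log2 ratio. Ratio intervals are exact conditional (Clopper-Pearson) and level intervals exact Poisson, both at 95%. With 1 library per genotype no test was run in edgeR or DESeq2. The calculations were tested on simulated data. Alternatives were DESeq2 1.42.0 size factors, total count, TMM from genes with at least 4 exons, no minimum, a minimum of 500 counts, 5 counts added, a lowess GC trend removed, limits of 1.5-fold and 4-fold, and an interval wholly beyond 2-fold. The use of the median transcript length, and the counts without paralogs and the XBP1 and ATF6 arm, were added after seeing the data. All 10 members are named, and of each further list up to 4 genes past 2-fold per direction, all paralogs, and markers at 0. Genes with too few counts, eIF2 alpha kinases, Alas2, Xpot and some others set beside a named gene were chosen after their values were seen. The members and lists were chosen with earlier results of these data known.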

Additional observations from a re-analysis of the deposited data

How the results depend on the processing

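No paired analysis was possible because each genotype had 1 library. Asns was past 2-fold under every alternative except a minimum mean of 500 counts, which left 4 response genes, without Asns, and 0 past the limit. The median of the response genes became 0.057 with the GC trend removed; the other alternatives run for it kept it below 0. Of the 88 genes compared in the 10 further lists, 35 were past a limit of 1.5-fold and 4 past 4-fold, in place of 16 at 2-fold. The shares of all genes past 1.5-fold and 4-fold were not computed, so these counts show only the dependence on the limit. Without the XBP1 and ATF6 arm 9 listed genes were past 2-fold, and 7 without the paralogs as well. An interval wholly beyond 2-fold left 13, without Calr, Atf3 and Fgf21. The GC correction left 12, without Chac2, Eif2s1, Sdf2l1 and Syvn1. Scaling by total count or by other factors moved the median of all genes by at most 0.05 in size. Atf4 and Atf5 left their counting intervals with total count (0.51 and -0.62), and these 2 with Chac1, Ddit3 and Sesn2 did so with the GC trend removed. Depth limits Phgdh and Psat1 most, whose intervals are the widest.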
